A study of Homo sapiens with 32 samples.

Results

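The genes described here are 10 genes of AP-1 and of the immediate-early response: FOS, FOSB, FOSL1, FOSL2, JUN, JUNB, JUND, ATF3, EGR1 and IER2. They were chosen by name from 59774 genes of a RefSeq table, and a peak counted as theirs when its summit lay in the gene span on either strand. The data are lists of peaks of m6A, the N6-methylated form of adenosine in RNA, made by m6A antibody pull-down with sequencing (MeRIP-seq). The RNA was the chromatin-bound fraction, depleted of ribosomal RNA, of the human melanoma cell line A375. Of 32 samples, 4 libraries were used: 2 of control cells (shControl, genotype given as WT) and 2 of cells with knockdown of METTL3 (shMETTL3), which encodes the enzyme that places most m6A. The labels name neither the hairpin sequences nor the extent of the knockdown, and they do not say if replicates are separate cultures, which leaves a technical spread possible.

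AP-1 is a dimer of basic leucine zipper proteins. JUN family proteins pair with each other or with FOS family proteins, while FOS family proteins need a JUN partner, and ATF3 is a related zipper protein that can join such dimers. FOS, FOSB, JUN, JUNB, EGR1, ATF3 and IER2 are classic immediate-early genes, which are transcribed within minutes of growth factor or stress signals without new protein synthesis and give short-lived mRNAs. In melanoma cells the ERK and JNK kinase pathways feed into these genes, and FOSL1 and JUN are known for roles in invasive, dedifferentiated states.

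In control replicates 1 and 2 the lists held 45345 and 47692 peaks in all, and in knockdown replicates 1 and 2 they held 44108 and 42969. Their read depth is unknown. Peaks of the 4 lists of the same strand with an overlap of 1 bp or more were joined to 66409 loci. METTL3 itself had 5 peaks in each list, which does not check the knockdown, since a peak list does not measure the amount of an RNA. Of 11 melanocyte and melanoma genes, MITF, SOX9, AXL, NGFR and TNC had peaks in every list, and the pigment genes PMEL, MLANA, TYR, TYRP1 and DCT and the lineage factor SOX10 had none in any list. A locus missing from a list can reflect less methylation or less RNA, and, in bulk RNA, fewer cells with the RNA or less of it per cell; these cannot be told apart here.

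The stretch before the annotated start is shown for 7 of the genes, whose peaks reached the start or came close to it in at least 3 lists. In 6 of them these letters hold elements that immediate-early promoters are known for, and the stretch of IER2, shown for its strong start peak in the control lists, holds none of those searched. The sequences are the 150 bases before the RefSeq start (GRCh38.p14, the same build as hg38), read 5′ to 3′ on the gene's strand. Capitals mark the CArG box, the site of serum response factor, the letters TGACGT (inside TGACGTCA, the cyclic AMP response element), TGACATCA, an AP-1 and ATF site, and TATAAA, each searched on both strands. JUN lies at chr1:58784048-58784197 and JUND at chr19:18281623-18281772, both on the minus strand, and the others on the plus strand: FOSL2 at chr2:28392708-28392857, FOSB at chr19:45467846-45467995, FOS at chr14:75278678-75278827, EGR1 at chr5:138465329-138465478 and IER2 at chr19:13150261-13150410.
JUN: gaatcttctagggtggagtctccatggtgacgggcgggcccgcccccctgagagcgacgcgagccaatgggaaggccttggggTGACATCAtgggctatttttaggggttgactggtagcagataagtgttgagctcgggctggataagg
JUND: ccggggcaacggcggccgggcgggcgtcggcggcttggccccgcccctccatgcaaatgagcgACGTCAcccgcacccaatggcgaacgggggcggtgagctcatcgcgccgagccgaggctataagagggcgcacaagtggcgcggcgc
FOSL2: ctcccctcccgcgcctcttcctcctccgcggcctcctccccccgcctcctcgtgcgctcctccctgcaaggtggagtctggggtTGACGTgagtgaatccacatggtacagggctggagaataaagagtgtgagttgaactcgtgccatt
FOSB: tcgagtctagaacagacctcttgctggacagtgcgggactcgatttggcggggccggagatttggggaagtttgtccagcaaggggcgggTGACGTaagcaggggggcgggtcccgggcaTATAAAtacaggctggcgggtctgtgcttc
FOS: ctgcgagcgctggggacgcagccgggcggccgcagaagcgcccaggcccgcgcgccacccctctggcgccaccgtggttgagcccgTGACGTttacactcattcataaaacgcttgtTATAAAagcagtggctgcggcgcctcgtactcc
EGR1: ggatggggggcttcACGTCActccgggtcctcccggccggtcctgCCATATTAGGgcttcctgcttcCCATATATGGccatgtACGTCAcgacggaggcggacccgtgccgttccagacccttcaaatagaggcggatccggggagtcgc
IER2: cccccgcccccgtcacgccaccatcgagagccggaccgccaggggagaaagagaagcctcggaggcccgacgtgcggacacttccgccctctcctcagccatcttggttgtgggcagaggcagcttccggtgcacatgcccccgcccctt

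The RefSeq promoter table, with 250 bases before and 50 after each start, held 10 windows for 9 of the genes and none for FOSL1. Among its 35116 windows TGACGT was in 7.98%, and it was in 5 of the 10 windows (EGR1, FOS, FOSB, FOSL2 and JUND). TGACATCA was in 2.61% of all windows and in those of JUN and of 1 of the ATF3 starts. TATAAA was in 11.5% of all and 4 of the 10. It began at -33, -30 and -31 from the start in FOS, FOSB and JUNB, and at -230 from the other ATF3 start. A CArG box was in 1.29% of all windows and here only in that of EGR1, which had a pair of them. TGACGTCA (1.85% of all) was in that of JUND, before the bases printed, and TGAGTCA (4.95%) in that of FOSL2, just after the start and on the other strand. Such a match is a description of letters, not of a bound factor.

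Peaks began upstream of the annotated start in 4 of these genes. In JUN, same-strand peaks covered the start in all 4 lists, and their edges lay at -35 and -60 bp from it in control replicates 1 and 2 and at -60 and -32 bp in knockdown replicates 1 and 2. FOSL2 peaks also covered its start in every list, with edges at -65, -69, -67 and -59 bp in that order. For FOSB the edges were -30, -32 and -30 bp in control replicates 1 and 2 and knockdown replicate 2, and 22 bp after the start in knockdown replicate 1. IER2 edges were at -14 and -15 bp for control, at 15 bp after the start in knockdown replicate 2 and no such peak in knockdown replicate 1. EGR1 peaks began 39 to 47 bp and JUND peaks 11 to 23 bp after the start in the 4 lists.

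All 10 genes carried peaks in all 4 lists, as did 16.3% of all genes in the table. The control lists held 34 and 35 peaks in the 10 genes and the knockdown lists 46 and 43. Both knockdown lists thus held more peaks here, while over all genes they were the shorter lists. On the own strand of the 9 genes with a known strand the numbers were closer, at 27 and 31 in control and 33 and 32 in knockdown. The opposite strand of these genes held 3 and 2 against 5 and 5. FOSL1, whose strand is not given, held 4 and 2 against 8 and 6. Some loci were cut into several peaks. Counted as loci with at least 1 peak, the 10 genes had 33 and 31 in control and 36 and 38 in knockdown. Mean peak numbers were 34.5 ± 0.707 peaks in control and 44.5 ± 2.12 in knockdown (SD, n = 2 each). With 2 lists against 2, an exact two-sided permutation test cannot go below p = 0.333, so no difference between groups in these genes could pass a threshold of 0.05.

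The surplus lay among weaker peaks. Where the fold enrichment was 4 or more, no surplus remained, with 16 and 13 peaks in control and 13 and 11 in knockdown. The groups met at 13 peaks (exact permutation p = 0.667). Among peaks with a −log10 q of at least 20 there were 30 and 32 against 34 and 30. Fold enrichment is the authors' value at the summit of a peak, relative to its own library. Peaks of these genes were wider in the control lists, with medians of 358.5 and 353 bp against 296.5 and 298 bp, whereas over all peaks the medians were 256 and 259 bp in control and 267 and 268 bp in knockdown.

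**Figure D1:**
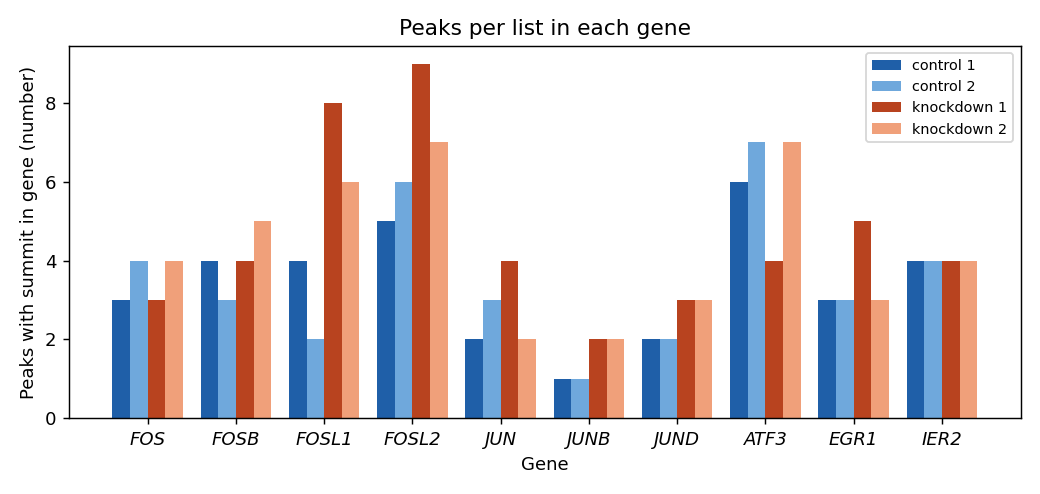
Number of peaks with a summit in each of the 10 genes (y axis) by gene (x axis) and list (bars: 2 control and 2 knockdown replicates). FOSL1 (4 and 2 against 8 and 6), FOSL2, JUNB and JUND held more peaks in both knockdown lists than in either control list, and IER2 had 4 in each. The added peaks of JUNB lay on the strand opposite to the gene.

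The 158 peaks formed 46 loci, of which 24 were in all 4 lists, where 35.7% of all loci were. Of the 30 loci found in both control lists, 1 had no peak in either knockdown list (control-only), against 22.6% of such loci over all. The 31 loci in both knockdown lists included 5 with no peak in either control list (knockdown-only), against 18.9% over all, a share near that background. None of the 10 genes lost all of its control loci, against 9.48% of genes with such loci over all. Without knockdown replicate 2 the control-only loci numbered 5, and without any other list 2. The knockdown-only loci numbered 8 without knockdown replicate 1 and 10 without knockdown replicate 2, partly because a locus is then asked to be in fewer lists. A knockdown-only locus was present in 4 of the 10 genes (36.0% over all genes that both knockdown lists mark) and a control-only locus in 1 (40.8% over all genes that both control lists mark). On the own strand of the 9 genes whose strand is known, 1 of 26 control loci was control-only (21.2% over all genes) and 2 of 23 knockdown loci were knockdown-only (17.4% over all genes).

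**Figure D2:**
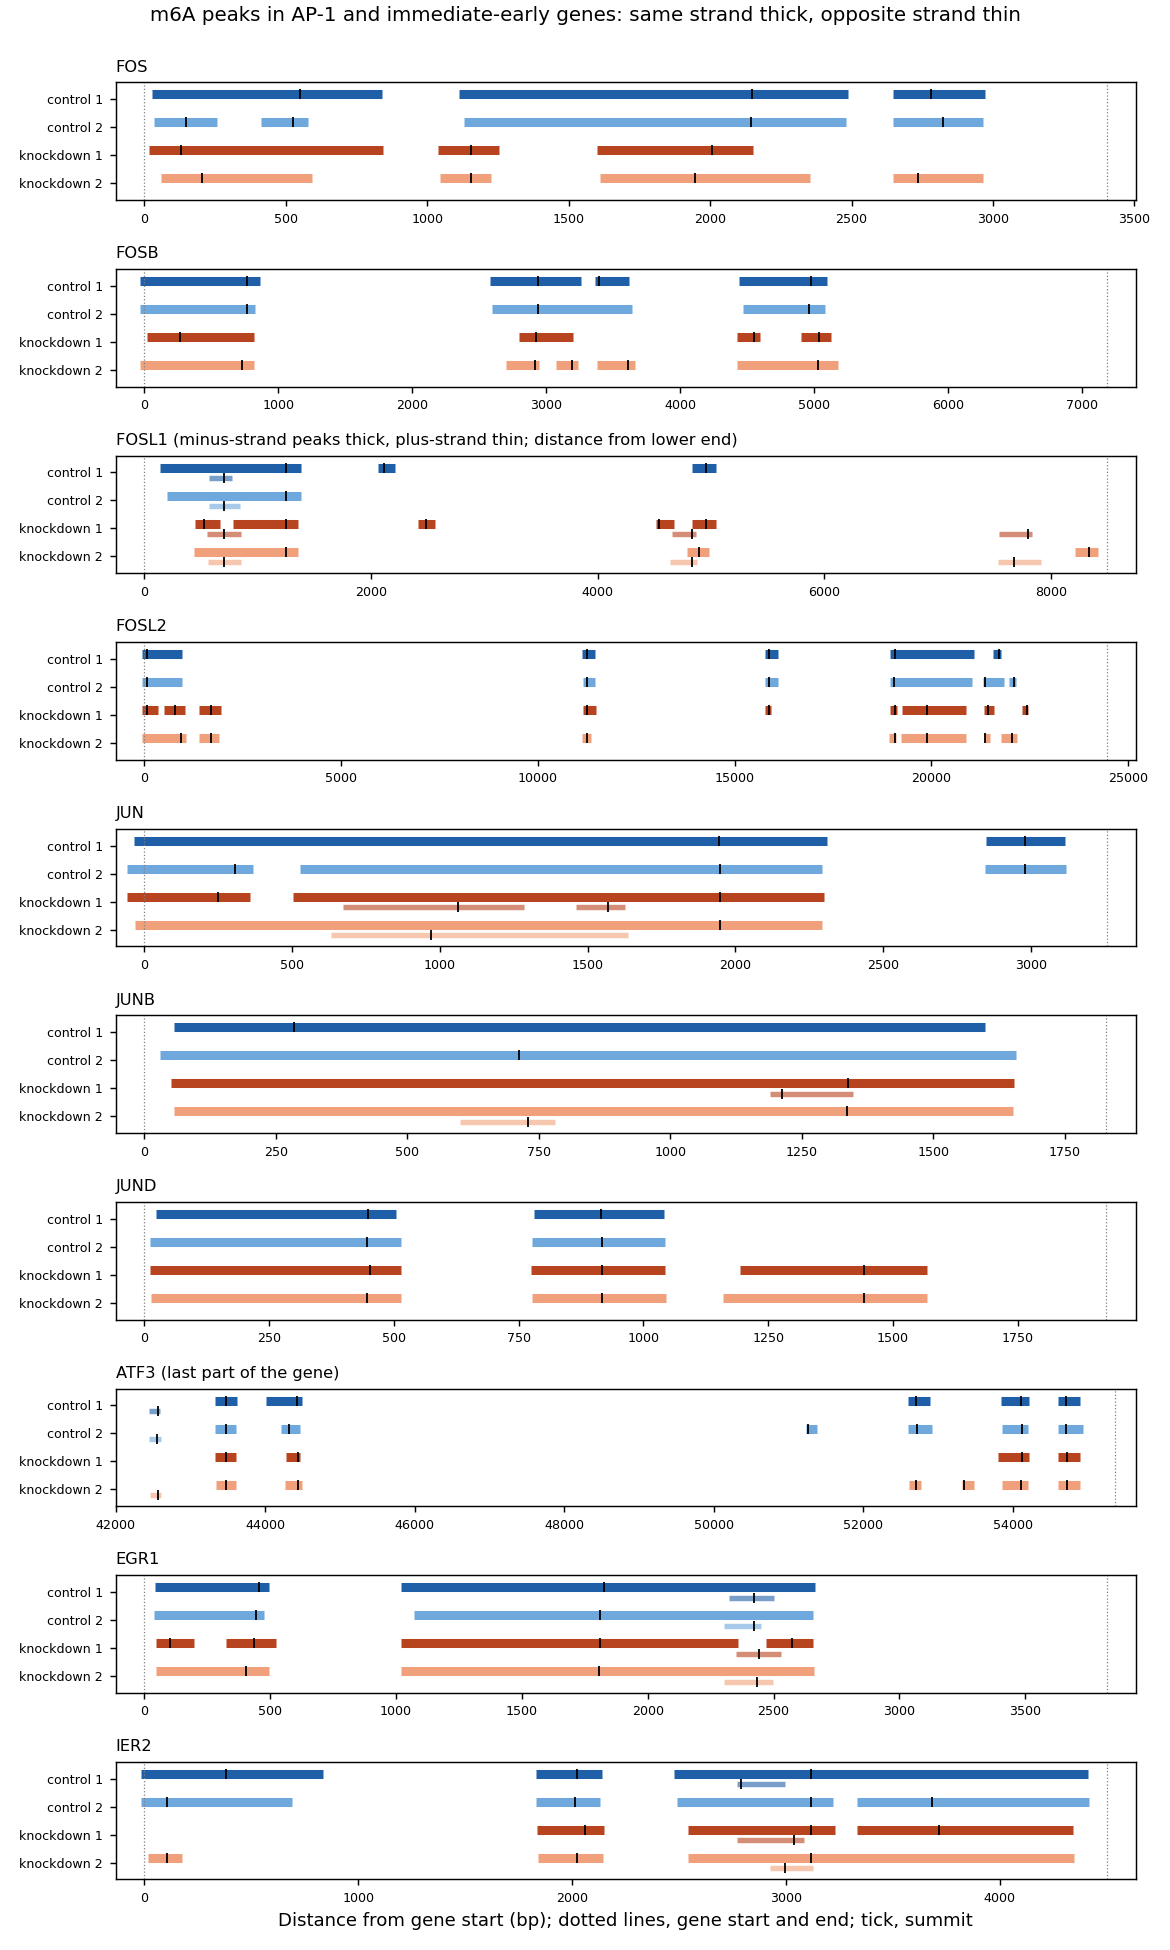
Peaks along each gene, with distance from the gene start in bp on the x axis (for FOSL1 from its lower end, for ATF3 its last part) and 1 line per list. Thick bars are peaks on the gene's strand, thin bars those on the other strand (FOSL1: minus strand thick, plus strand thin), and ticks are summits. The last locus of JUN is in both control lists and in neither knockdown list. The reverse holds for the opposite-strand bars of JUN, the last locus of JUND, the FOSL2 locus 1688 bp from its start and 2 plus-strand loci of FOSL1.

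JUN, the founding AP-1 subunit, held loci of both kinds and is described first. The gene lies on the minus strand at 58780791 to 58784047 of chromosome 1 (hg38) and is 3257 bp long. Its control-only locus, at 58780929 to 58781203, had its summit 275 bp before the gene end, at the same base in both control lists, with folds of 3.96 and 3.26. No knockdown list had a peak there. The main locus of JUN, at 58781739 to 58784107, was in all 4 lists, with highest folds of 4.09 and 3.70 in control and 2.34 and 1.87 in knockdown. Folds of that locus did not overlap between the groups, and within their lists they stood at percentiles 57.0 and 51.8 in control and 8.31 and 2.29 in knockdown. A summit fell at 58782100 to 58782102 in all 4 lists, where the fold in knockdown replicate 1 was 2.13. Its broad peak was cut in 2 in control replicate 2 and knockdown replicate 1.

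On the plus strand, opposite to JUN, both knockdown lists had peaks within the gene and neither control list did. The locus, at 58782412 to 58783417, is 1006 bp wide and had highest folds of 5.70 and 4.02 in knockdown replicates 1 and 2, higher than those on the gene's own strand in the same lists. JUN-DT, a divergent lncRNA gene on the plus strand, starts 1104 bp beyond the JUN start and had no locus in both lists of either group. Over all genes with a known strand, 9.41% of the gene loci in both knockdown lists lay on the opposite strand, and 23.0% of those were knockdown-only. The 9 genes with a known strand had 3 such opposite loci, and that of JUN was the knockdown-only one. In both control lists they had 2, in ATF3 and EGR1 (9.42% of such gene loci over all).

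JUND, which encodes a JUN protein known for steadier expression than JUN and JUNB, had a knockdown-only locus near its end. It lies at 18280054 to 18280462 on the minus strand of chromosome 19, 485 bp before the gene end, with folds of 2.43 and 2.41, at percentiles 9.82 and 9.54 of their lists, so both peaks were weak. The other JUND loci were in all 4 lists. At 18280577 to 18280848 the folds were 5.31 and 4.26 in control and 4.2 and 3.65 in knockdown, and at 18281107 to 18281611 they were 2.69, 3.57, 2.34 and 2.76 in the same order. Folds of the former did not overlap and those of the latter did. JUND peaks covered 744 and 772 bp of its 1929 bp in control and 1150 and 1181 bp in knockdown, a difference larger than the spread between replicates (758 ± 19.8 against 1165.5 ± 21.9, SD, n = 2 each; exact permutation p = 0.333, the smallest possible).

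JUNB, a JUN protein that often acts as the weaker activator, was covered by 1 long same-strand peak in every list. The locus spans 12791516 to 12793143 on chromosome 19, and the peaks covered 84.3% and 89.0% of the gene in control and 87.6% and 87.2% in knockdown. Its folds were low, at 2.33 and 3.08 in control and 2.82 and 3.07 in knockdown, and overlapped. The summit moved within the peak, by 1052 bp between the lists, so the folds were read at different bases. On the minus strand each knockdown list had 1 peak of its own, at different places, with folds of 3.17 and 2.44. The HOOK2 gene, on the minus strand, overlaps JUNB. The minus-strand peak of knockdown replicate 2, at 12792086 to 12792266, has its summit in both spans. It lies on the strand of HOOK2 and opposite to JUNB, and is counted here because peaks of either strand were taken. The summit of the peak of knockdown replicate 1, at 12792676 to 12792833, lay outside the HOOK2 span.

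FOS, the best known immediate-early gene, had 3 loci on the plus strand of chromosome 14, and none on the other strand. The first, at 75278843 to 75279673, was in all lists with folds of 3.29 and 5.39 in control and 7.77 and 3.04 in knockdown, which overlap. Their summits differed, at 75279378 and 75278976 in control and at 75278959 and 75279031 in knockdown. Control replicate 2 had a second peak there, with its summit at 75279353 and a fold of 2.94. The middle locus, at 75279867 to 75281314, had 4.48 and 3.48 against 3.44 and 3.28. In the control lists this was 1 peak, and in both knockdown lists it was cut into 2, so these folds were read at different bases. The control summits were at 75280975 and 75280973 and the stronger knockdown summits at 75279984 and 75279983. The knockdown peaks nearer to the control summits, at 75280833 and 75280776, had folds of 1.74 and 2.50. The last locus, 622 bp before the gene end, had folds of 4.12 and 2.92 in control and 2.18 in knockdown replicate 2, with no peak in knockdown replicate 1. Same-strand peaks covered 73.9% and 60.5% of FOS in control and 47.0% and 52.2% in knockdown.

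FOSB, whose shorter splice form accumulates after repeated stimulation in neurons, kept 3 loci in all 4 lists. The strongest, at 45472417 to 45473169 on chromosome 19, had folds of 7.14 and 6.95 in control and 6.14 and 9.22 in knockdown, which overlap. It stood at percentiles 93.2 and 94.2 of the control lists and 84.6 and 97.3 of the knockdown lists. At the gene start the folds were 3.59 and 3.26 against 3.55 and 5.0, and at 45470579 to 45471660 they were 3.94 and 3.37 against 3.39 and 2.89. No FOSB locus was limited to a group.

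FOSL2, which encodes the FOS-related protein FRA2, held the highest folds of the set. At 28411785 to 28413947 on chromosome 2 the folds were 3.42 and 3.08 in control and 10.9 and 11.8 in knockdown. The knockdown values stood at percentiles 99.1 and 99.5 of their lists. These folds were read at different bases, however. Each control list had 1 peak over the locus with its summit at 28411926 and 28411916, whereas each knockdown list had 2 peaks, of which the second, stronger one had its summit at 28412753 and 28412746. The first knockdown peaks had summits at 28411927 and 28411921 and folds of 2.95 and 2.92, just below both control values at those bases. No fold at the second summit is given for the control lists.

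A knockdown-only locus of FOSL2 lay at 28394234 to 28394811, 1688 bp from the start, with folds of 3.06 and 3.70. The same bases lie in FOSL2-AS1, an lncRNA gene on the minus strand, but the peaks were on the plus strand. At 28408625 to 28408971 the control folds of 4.28 and 5.49 were joined by 5.99 in knockdown replicate 1, with no peak in knockdown replicate 2. The locus at 28403987 to 28404334 was in all lists (5.25 and 3.97 against 2.83 and 4.0), and its 4 summits fell within 4 bp of each other. The locus at 28414161 to 28415028 had folds of 1.99 and 3.49 against 2.92 and 4.60, and a last peak at 28415158 to 28415311 was in knockdown replicate 1 alone.

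FOSL1, which encodes FRA1, the FOS protein most tied to invasive growth, is given without a strand in the tables used. It held 4 and 2 peaks in control and 8 and 6 in knockdown, the widest gap of the 10 genes. A minus-strand locus at 65892191 to 65893430 on chromosome 11 was in all lists, with folds of 3.6 and 3.32 in control and 2.77 and 3.01 in knockdown, which do not overlap. A plus-strand locus at 65892606 to 65892899 was also in all lists, with folds of 4.31, 3.32, 3.75 and 2.77, and its 4 summits fell on 2 neighbouring bases.

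A pair of further plus-strand loci of FOSL1 was knockdown-only. The locus at 65896692 to 65896924 had folds of 2.06 and 2.86 and that at 65899587 to 65899960 had 3.61 and 3.78. CCDC85B, a plus-strand gene 414 bp beyond the lower end of FOSL1, had 3 loci in both knockdown lists, 2 of them knockdown-only, and 1 locus in both control lists, which was kept. On the other side, C11orf68 kept all 3 of its loci. The other minus-strand peaks of FOSL1 were in 1 to 3 lists, with folds of 1.56 to 2.77.

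ATF3, a stress-induced zipper protein that often represses transcription, has a span of 55371 bp, and all its peaks lay in the last part, at least 42552 bp from the start of that span. A further annotated start lies at 212615018. The loci at 212607854 to 212609907 lay before this start and the others after it. Of its 8 loci, 4 were in all lists, and none was limited to a group in both replicates. At 212620008 to 212620347, 654 bp before the gene end, the folds were 5.04 and 5.05 in control and 2.98 and 2.97 in knockdown, with summits within 10 bp. At 212608741 to 212609031 they were 4.80 and 5.47 against 3.28 and 4.48, and at 212609422 to 212609907 they were 3.40 and 3.90 against 1.92 and 2.38. The groups did not overlap at these 3 loci and did at the fourth (5.03 and 3.29 against 3.67 and 4.74). The strongest control locus of ATF3, at 212618001 to 212618324, had folds of 6.70 and 7.80, at percentiles 91.1 and 96.8, and in the knockdown lists only replicate 2 had a peak, with 3.14. A short opposite-strand locus at 212607854 to 212608016 was also in these 3 lists, with 3.71 and 4.21 in control and 3.51 in knockdown replicate 2. Of the remaining same-strand peaks, 1 was in control replicate 2 alone and 1 in knockdown replicate 2 alone.

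EGR1, a zinc finger factor induced by serum response factor and ERK signalling, had all 3 loci in every list. Its main locus, at 138466499 to 138468142 on chromosome 5, had folds of 5.67 and 5.06 in control and 6.06 and 6.61 in knockdown. Near the start, at 138465518 to 138466002, the folds were 2.68 and 3.03 against 4.58 and 3.57. In both loci the knockdown values were above the control values without overlap, the opposite order to JUN and ATF3. Knockdown replicate 1 had 2 peaks in each locus, and its highest folds were read away from the control summits. Its peaks nearer to them had folds of 5.96 in the main locus and 4.39 near the start, still above both control values. By percentile, however, that main peak stood at 83.0, between 83.4 and 79.7 in control replicates 1 and 2. An opposite-strand locus at 138467781 to 138468009 had folds of 4.06 and 3.35 in control and 4.39 and 4.04 in knockdown, which overlap, and this was the opposite-strand locus with a peak in each list.

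IER2, a small nuclear regulator and not a zipper protein, held the highest-ranked start peak of the 10 genes in the control lists. At 13150396 to 13151244 on chromosome 19 the control folds were 7.61 and 7.79, at percentiles 94.9 and 96.8. Knockdown replicate 2 had a short peak there with a fold of 3.63, at percentile 41.4, and knockdown replicate 1 had none. Toward the gene end, at 13152886 to 13154829, the folds were 5.36 and 5.31 in control and 4.36 and 3.48 in knockdown, again without overlap. The locus at 13152242 to 13152558 did not separate the groups (2.95 and 3.31 against 3.6 and 2.92). Opposite-strand peaks at 13153181 to 13153537 had folds of 2.26 in control replicate 1 and 2.85 and 3.72 in knockdown. Same-strand peaks covered 3078 and 2814 bp of IER2 in control and 2013 and 2272 bp in knockdown (2946 ± 187 against 2142.5 ± 183, SD, n = 2 each; exact permutation p = 0.333).

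**Figure D3:**
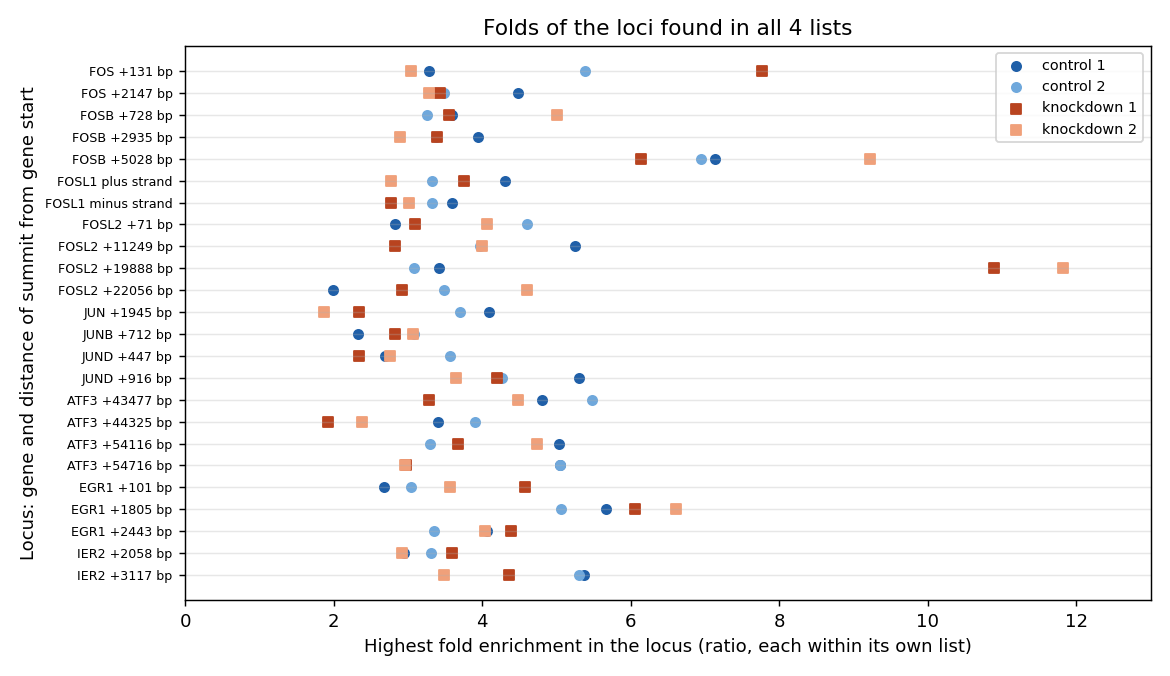
Highest fold enrichment in each list (x axis, ratio) for the 24 loci found in all 4 lists (y axis, by gene and distance of the strongest summit from the gene start), with circles for control and squares for knockdown. The squares of FOSL2 at 10.9 and 11.8 stand apart, read at another summit than the control values, and JUN and 3 ATF3 loci have both squares below both circles.

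Across the 24 loci in all 4 lists, both knockdown folds were below both control folds at 8, where 21.5% of all such loci were, and above at 3, where 31.6% were. The 8 lay in ATF3 (3 loci), FOS, FOSL1, IER2, JUN and JUND, and the 3 in EGR1 (2 loci) and FOSL2. The FOSL2 entry rests on the other summit described above, and at the shared summit its knockdown folds of 2.95 and 2.92 were below those of control. By percentile within the own list, 10 were lower (28.0% of all) and 3 higher (25.3% of all). The main EGR1 locus was among the higher only by the other summit of knockdown replicate 1. Raw folds are each relative to their own library and the lists differ in length, so neither count measures a change of methylation.

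The genes' peaks had a median fold of 3.95 and 3.57 in control replicates 1 and 2 and of 3.23 and 3.14 in knockdown replicates 1 and 2. Over all peaks the medians were 3.84 and 3.65 in control and 3.92 and 3.93 in knockdown. In percentiles, the genes' peaks had a median rank of 53.3 and 47.8 in control and 30.0 and 27.7 in knockdown. Below the median of their own list were 16 of 34 and 19 of 35 peaks in control and 33 of 46 and 31 of 43 in knockdown. At or above the 90th percentile were 3, 3, 2 and 2 peaks in the same order, a class that holds a like share of every list by construction. With lists limited to equal length the median ranks were 51.0 and 42.0 against 31.4 and 27.7.

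**Figure D4:**
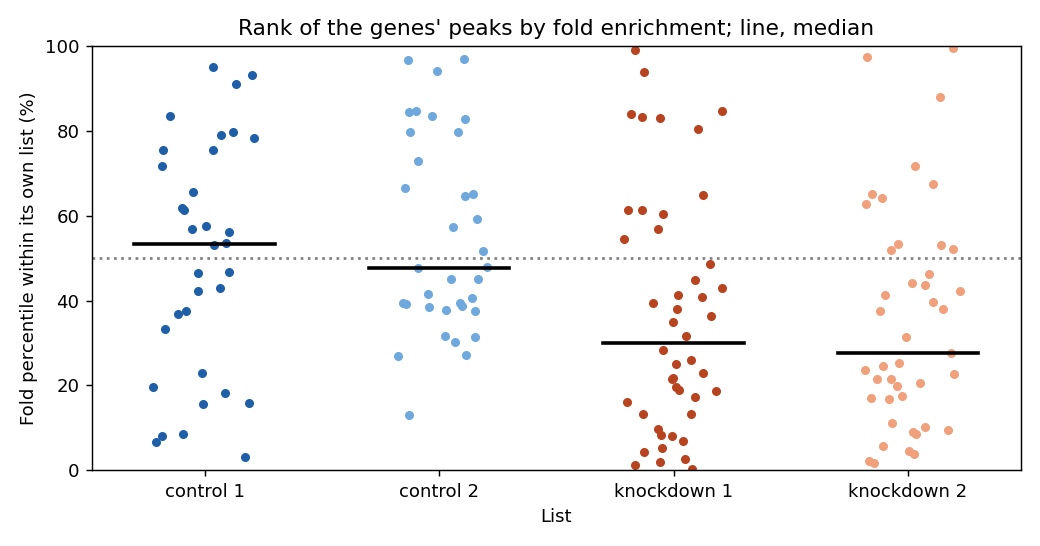
Percentile of fold enrichment within its own list (y axis, %) for each peak of the 10 genes, by list (x axis), with a line at the median. Medians are 53.3 and 47.8 for control and 30.0 and 27.7 for knockdown, and the 2 highest points of the knockdown lists are FOSL2 peaks.

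The genes are mostly short and densely covered. In the 9 genes with a known strand, same-strand peaks covered a median of 54.8% and 52.9% of the span in control and 47.0% and 52.2% in knockdown. Over all genes with such a peak the median was 2.82% to 2.94%, and over those under 10 kb 12.2% to 14.5%. The extremes were JUNB, with 84.3% to 89.0%, and ATF3, with 2.11% to 3.15%. Summits recurred at nearly the same base in some loci and not in others. In the 12 loci of these genes with exactly 1 peak in each list, the 4 summits spanned a median of 12 bp (quartiles 3.5 and 64.5), against 25 bp (quartiles 7 and 84) in 19606 such loci over all, so the ranges overlap widely. At the JUND locus 916 bp from the start the span was 2 bp, and at the first same-strand ATF3 locus it was 2 bp, while it was 120 bp at the next ATF3 locus, 505 bp at the FOSB start and 1052 bp in JUNB.

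Among 23 further zipper genes related to AP-1, several of which pair with its proteins, 13 had loci in both control lists, and none lost all of them (9.48% of all genes did). Gained, with all loci of both knockdown lists absent from both control lists, were 3 of 17 (10.1% of all genes were). These were JDP2, a repressor that binds JUN, with folds of 8.44 and 9.20, the small MAF gene MAFF, with 3 loci and a strongest of 6.01 and 7.88, and CREM, with 3.78 and 4.19. BACH1, ATF6 and NFE2L1 were kept, with 5, 10 and 6 loci in all lists. BACH1 and ATF6 each lost 2 loci beside them. Of the loci of this list in both control lists, 8 of 52 (15.4%) were control-only, and 8 of 50 (16%) in both knockdown lists were knockdown-only. Over all genes these shares were 21.7% and 18.4%.

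Other immediate-early transcription factor genes, 26 in number, had 17 genes with control loci, none of them lost (9.48% of all genes were). Gained were 2 of 20 (10.1% of all genes were). The gained genes were KLF2, a zinc finger factor, with folds of 6.31 and 5.26, and ELK1, which binds with serum response factor, with 2.80 and 3.13. Its relatives ELK3 and ELK4 kept 4 and 5 loci, and HES1 kept 2. In this list 17 of 61 loci (27.9%) were knockdown-only and 8 of 52 (15.4%) control-only. These shares stand beside 18.4% and 21.7% of the gene loci of all genes.

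Of 34 other immediate-early response genes, 29 had control loci and 1 was lost (9.48% over all genes), and 1 of 28 was gained (10.1% over all genes). Both were GEM, a small GTPase gene with 2 control-only loci and 1 knockdown-only locus. ZFP36L2, an mRNA decay factor, kept its single locus with folds of 8.43 and 9.09 in control and 10.4 and 8.01 in knockdown. SPRY4 and GADD45B kept 3 each, with GADD45B at 12.4 and 12.8 in control and 9.09 and 5.93 in knockdown. Control-only were 6 of 74 loci (8.11%, against 21.7% over all genes) and knockdown-only 17 of 85 (20%, against 18.4%).

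Among 22 genes known as AP-1 targets, 16 had control loci and 1 was lost, the collagenase gene MMP1, with a weak locus of 3.22 and 3.10 (9.48% of all genes were lost). None of 15 was gained (10.1% of all genes were). Control-only were 16 of 85 loci (18.8%) and knockdown-only 9 of 67 (13.4%), against 21.7% and 18.4% over all genes. EZR kept 7 loci, HMGA2 9 and SPP1 2, with folds of the strongest SPP1 locus of 7.22 and 6.48 in control and 8.39 and 8.66 in knockdown. Of 22 kinase and ubiquitin ligase genes that act on AP-1, 18 had control loci. Lost were 2 of these (9.48% of all genes), MAPK7, with 3 control-only loci and a strongest of 5.86 and 5.68, and MAP2K1, with 1 locus of 2.79 and 3.58. The gained genes included RPS6KA2, which encodes a ribosomal S6 kinase, with 1 locus. In this list 15 of 71 loci (21.1%) were control-only and 15 of 75 (20%) knockdown-only, near the shares over all genes. MAPK8, which encodes the JUN kinase JNK1, kept 9 loci, MAP3K1 3 and MAPK14 3.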

How the data were processed

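The data are 4 peak lists, 1 per library and with peaks named by strand per the deposited files. Per the submitters' processing notes, the build was hg38 and the tools were MACS2 2.2.7.1, HISAT2 2.1.0, Bowtie2 2.4.2, SAMtools and Trim Galore 0.6.6, with no role named. How input and spike-in were used is not given. The fold enrichment, a ratio, and the −log10 q of each peak are the deposited values of the authors, and depth is unknown. The summit is the authors' offset from the peak start.

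Peaks were placed by summit in gene spans of a RefSeq table (GRCh38.p14); strands came from the RefSeq promoter table. Peaks were joined to loci with Python 3.11.15 and pandas 2.3.3, checked on simulated peaks, and a locus was placed by the summit of its peak with the highest fold. The rule for names took all 10 genes, genes overlapping them or next to those with moved loci, and up to 3 lost, gained and kept genes from each list of related genes. The latter were those ranked highest by the lowest fold percentile of their locus among the lists that hold it. Genes and lists were chosen with earlier results of these data known. Alternatives covered strand, overlap, thresholds, span and left-out lists. FOSL1 had no strand, so loci of both strands are given. Input, dCas13b-FTO, second knockdown and HEK293T libraries are not analysed here.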

Additional observations from a re-analysis of the deposited data

How the results depend on the processing

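All 10 genes had a peak in every list under each setting but 1: with a fold of at least 4, 3 did. That setting also left 26 loci, 2 of them in all lists, 3 control-only and 2 knockdown-only, and turned the difference in peaks per list from 10 to -2.5. The control-only count of 1 moved to 3 with reciprocal overlap of 50%, to 2 with a −log10 q of at least 20, and to between 2 and 5 with a list left out. The knockdown-only count of 5 was 3 with both strands pooled and with a −log10 q of at least 20, and 5 to 10 with a list left out. The difference in median fold percentile, with alternatives chosen after seeing the data, ran from -24.5 to -6.23. At the latter, with a fold of at least 4, the lists overlapped, at 75.4 and 82.7 in control and 80.5 and 65.2 in knockdown (exact permutation p = 0.667), and pooling strands or reciprocal overlap cannot alter this value. The cause of these shifts was not tested, beyond the fewer peaks or lists that each setting keeps. Counts of 1 to 5 loci allow no firm statement. With the replicate number as a block, an analysis added after seeing the data, the knockdown list held 12 more peaks in pair 1 and 8 more in pair 2 (mean 10, exact sign-change p = 0.5, the smallest that 2 pairs allow), and the percentile differences were -23.3 and -20.1 (mean -21.7, exact p = 0.5). The labels do not say that the numbers pair the samples, and over 23691 loci of all lists the deviations of log2 fold from the group means correlated at 0.0028 between lists of the same number. Counts of loci come from no test and were not blocked.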
